A study of Mus musculus with 19 samples.

Results

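The killer lectin-like receptors are surface proteins by which natural killer (NK) cells, and some T cells and myeloid cells, sense other cells. Their genes were taken as every row of the deposited expression table whose symbol starts with Klra, Klrb, Klrc, Klrd, Klre, Klrg, Klri or Klrk, with letter case ignored because the table prints 7 of them in capitals (as KLRD1). The rule found 29 of the 27179 genes in the table. By their known roles 13 are inhibitory receptors, 9 are activating receptors, 2 are partner chains (Klrd1 and Klre1), 3 are pseudogenes, and Klra10 and Klrg2 were put in none of these classes.

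Messenger RNA of splenocytes was sequenced from 19 FCG mice on a C57BL/6 background, in which the kind of gonad does not depend on the sex chromosomes. There was 1 library per mouse, and the design serves to separate effects of XX and XY sex chromosomes from those of ovaries and testes. XXF mice (5) had XX chromosomes and ovaries, and XYF mice (4) had ovaries and a Y chromosome from which Sry was deleted. XXM mice (5) had XX chromosomes and testes through an Sry transgene on chromosome 3, and XYM mice (5) had the same transgene beside the Y chromosome without Sry. All mice had received heat-killed Streptococcus pneumoniae (HKSP) 1 week earlier, with no unimmunized group here and no ages given for these mice, and red cells had been lysed. Gonads and the presence of the Sry transgene cannot be told apart in this design.

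Inhibitory members carry a tyrosine motif in their tail that recruits phosphatases and dampens the cell, and many of them, such as the Ly49 receptors of the Klra genes and the CD94/NKG2A pair, recognise MHC class I molecules of healthy cells. Activating members lack that motif and signal through adaptors such as DAP12 and DAP10. A single NK cell carries only some of the Ly49 receptors, and in the mouse nearly all of these genes stand side by side in the NK gene complex of chromosome 6.

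The libraries held between 11263753 and 19962022 reads, as recovered from the steps of the deposited values. Xist had between 5823 and 12998 reads in the 10 XX mice and between 2 and 17 in the 9 XY mice, and Sry had between 12 and 119 reads in the 10 males and 0 in the 9 females. The titles of XXM mice alone carry a tag of unknown meaning, and no batch is given. Whatever the tag marks cannot be told apart from the XXM group in any comparison that includes these mice. All 5 B cell, 9 T cell, 9 NK and 7 myeloid markers listed for splenocytes had reads in every mouse. Of all mice, XYF F9 and XYM 9 stood apart: the summed level of 7 myeloid markers was 45662 and 46317 RPKM in them and between 3148 and 16173 in the other mice, and the summed level of 9 NK markers was 185 and 150 RPKM, against 284 to 712 in the others. Counts of members called are therefore also given without these 2 mice. XYF F6 had the smallest library (11263753 reads) and, with XYF F9, the highest sums of the 4 erythroid markers measured, at 15699 and 12538 RPKM against 397 to 5706 in the others.

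The levels of the members, in RPKM (reads scaled to gene length and library size), spanned more than 2 orders of magnitude. Klrd1, which encodes the CD94 chain that pairs with NKG2 receptors, had the highest mean over all mice at 77.7 RPKM (31.6 to 134 in single mice). The next was the pseudogene Klra13-ps at 47.9 RPKM (20.2 to 82.6), followed by Klre1, the partner chain of KLRI1 and KLRI2, at 30.5 RPKM (9.84 to 49.7). Among the other receptors the activating Klra4 (27.7 RPKM), Klra8 (22.5), Klrk1 (18.6) and Klrb1c (17.8) and the inhibitory Klra7 (16.2) and Klra2 (14.2) had the highest means over all mice, but their order differed between groups. In XYF mice Klra2 had the highest mean of the 6, at 21 RPKM against 8.74 to 12.6, and in XXM mice it had the lowest, at 9.78 RPKM against 19.8 to 43.3. At the low end were Klrb1 (1.3 RPKM), Klrc3 (1.12) and Klra5 (0.812), with as few as 2, 4 and 3 reads in the mouse with the fewest. Klrg2 and Klra11-ps had means of 0.159 and 0.144 RPKM, with 0 reads in some mice, and were not tested. Of the 28 neighbours in this order, 5 differed by more than the SD of their difference over mice, namely Klrd1 over Klra13-ps, Klra13-ps over Klre1, Klra4 over Klra8, Klri1 over Klra10 and Klra5 over Klrg2. The other neighbours did not differ beyond that spread.

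**Figure D1:**
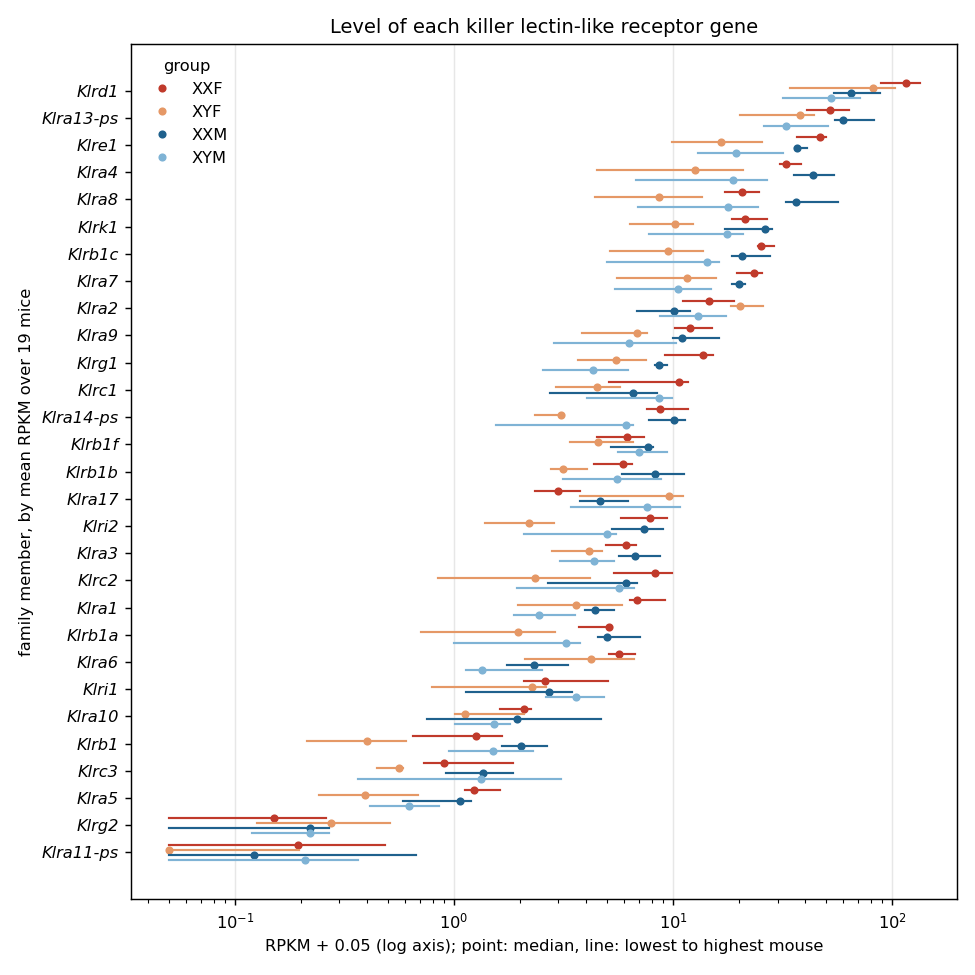
Level of each of the 29 members in the 4 groups, ordered by the mean over 19 mice, on a log axis of RPKM + 0.05. The point is the median of a group and the line runs from its lowest to its highest mouse; for members such as Klre1, Klra4 and Klrb1c the XYF and XYM points lie left of those of XXF and XXM.

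The members lie on chromosome 6 of GRCm38, the assembly that mm10 denotes. RefSeq places Klrg2 from 38616329 to 38638815, Klrg1 from 122270596 to 122282833, and the other members it holds between 128609227, the start of Klrb1a, and 131247716, the end of Klra2. Klra11-ps could not be matched by its identifier and has no position here. Several members arose by duplication and remain alike in sequence, and the sources used here do not say what was done with reads that match more than 1 of them. The share of a gene's 51-base windows (the read length) that also occurs in a transcript of another gene was 38.4% for Klra10, 37.9% for Klrc1 (36% with Klrc2), 35.5% for Klrc3, 32.4% for Klra8 (20% with Klra14-ps) and 30.4% for Klra9. It was 11.8% for Klra7, all of it shared with Klra13-ps, 4.35% for Klra4, 2.35% for Klra6, and 0 for Klra2, Klra17, Klrb1, Klrb1f, Klrd1, Klrg1 and Klrk1. Values of the former genes are thus less certain for the single gene than those of the latter. The windows were those of all annotated transcripts of a gene and not only of the bases that were counted. Klrc1 had 2031 windows but 735 counted bases, and Klrc2 had 6007 windows but 782 counted bases. The share within the counted bases was not measured and may be higher than the share given.

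The promoters of the Klra genes also resemble each other. They are shown here for 4 members whose expression went different ways in the comparisons described further on: Klra8 and Klra4 were higher in XX mice, Klra17 was lower in XXF than in XYF mice, and Klra6 was lower in males while Klra8 was higher in males. The windows run from 250 bases before to 50 bases after the start in RefSeq (GRCm38.p6), on the minus strand of chromosome 6, at 130129849-130130148 for Klra8, 130067222-130067521 for Klra4, 129876623-129876922 for Klra17 and 130026905-130027204 for Klra6. Capitals in the latter 3 mark bases that differ from Klra8 or have no partner in its window.
Klra8: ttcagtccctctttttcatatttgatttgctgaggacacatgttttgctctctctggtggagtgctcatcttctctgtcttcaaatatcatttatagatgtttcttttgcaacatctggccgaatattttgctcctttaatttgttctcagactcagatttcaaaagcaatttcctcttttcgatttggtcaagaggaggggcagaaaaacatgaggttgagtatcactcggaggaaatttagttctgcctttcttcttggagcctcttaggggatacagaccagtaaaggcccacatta
Klra4: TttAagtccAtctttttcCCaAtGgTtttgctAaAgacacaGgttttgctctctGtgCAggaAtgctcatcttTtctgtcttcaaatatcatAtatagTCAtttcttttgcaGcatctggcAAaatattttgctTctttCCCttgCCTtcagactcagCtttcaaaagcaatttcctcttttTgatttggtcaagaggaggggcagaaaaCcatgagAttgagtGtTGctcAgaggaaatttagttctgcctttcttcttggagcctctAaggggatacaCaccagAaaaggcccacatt
Klra17: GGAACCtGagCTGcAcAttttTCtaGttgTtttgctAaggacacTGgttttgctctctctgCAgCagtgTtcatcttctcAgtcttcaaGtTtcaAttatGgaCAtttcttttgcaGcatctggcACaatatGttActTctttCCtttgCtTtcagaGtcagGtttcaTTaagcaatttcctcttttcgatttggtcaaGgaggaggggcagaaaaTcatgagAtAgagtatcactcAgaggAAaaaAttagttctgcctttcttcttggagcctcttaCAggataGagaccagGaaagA
Klra6: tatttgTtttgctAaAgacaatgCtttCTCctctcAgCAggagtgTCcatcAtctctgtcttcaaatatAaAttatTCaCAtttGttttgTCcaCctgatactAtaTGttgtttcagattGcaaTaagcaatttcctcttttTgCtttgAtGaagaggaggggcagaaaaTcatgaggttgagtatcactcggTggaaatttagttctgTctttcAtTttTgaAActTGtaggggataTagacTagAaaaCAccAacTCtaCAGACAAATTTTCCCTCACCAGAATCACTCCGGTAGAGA
In the aligned stretches Klra8 was identical to Klra4 at 86.6% of 299 bases, to Klra17 at 83.5% of 291 and to Klra6 at 81.2% of 260. Klra4 and Klra17 were identical at 84.2% of 291 bases. The highest identity among Klra windows with at least 200 aligned bases was 96.4%, between Klra9 and Klra3.

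RefSeq gave such a window for 23 members, and Klrd1, Klrg1, Klri2, Klra11-ps, Klra13-ps and Klra14-ps have none in the table used. The first window listed for a gene was taken, and it need not stand at the outer end of the gene. Those of Klre1, Klrc1, Klrb1, Klri1, Klrg2, Klra2, Klra7, Klra9 and Klra10 lie wholly inside the gene's span. For Klre1 the window is at 129577963-129578262, in a gene that runs from 129559365 to 129585828. The windows were searched on both strands for letters bound by transcription factor families of lymphocytes, where matches of different motifs may overlap. The letters TGTGGT (Runx) stood in 8 of 23 member windows (34.8%) and in 16.9% of all 27025 windows. The members holding them were Klrb1a, Klrb1c, Klre1, Klrk1, Klrc1, Klrc2, Klrc3 and Klra1. The windows of Klrc2 and Klrc3 are nearly alike in sequence, and those of Klrb1a and Klrb1c are alike around these letters. Matches of any motif in such alike windows are not independent, and the shares were not tested. For the other motifs the shares were 26.1% against 19% for GGTGTG (T-box), 17.4% against 7.93% for TGANTCA (AP-1), 8.7% against 5.27% for CTTTGAA (TCF/LEF), 13% against 13.5% for GAGGAAG (Ets) and 13% against 11.4% for AGATAA, the letters of the GATA factors. The promoter of Klrc2, the NKG2C gene that returns below because its difference between XX and XY mice was seen in females, is given with its Runx letters, read on the other strand, in capitals. It lies on the minus strand of chromosome 6 at 129660547-129660846.
Klrc2: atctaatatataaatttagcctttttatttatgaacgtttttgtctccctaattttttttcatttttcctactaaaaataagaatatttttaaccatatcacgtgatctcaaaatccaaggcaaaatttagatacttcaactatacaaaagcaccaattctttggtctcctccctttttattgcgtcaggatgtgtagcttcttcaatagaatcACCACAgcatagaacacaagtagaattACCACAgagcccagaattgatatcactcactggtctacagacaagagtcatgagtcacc

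For 27 members the level passed the filter (0.5 RPKM or more in 4 or more mice), as it did for 14186 genes in all. These were compared with limma on the deposited log2(RPKM + 1) values, and a gene was called at a Benjamini-Hochberg adjusted p under 0.1 and a change of over 1.5-fold in RPKM + 1. All log2 differences below are on that scale, which understates the change of weakly expressed genes.

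XX mice had more receptor RNA than XY mice of the same gonadal sex. Between XXF and XYF mice 15 of the 27 members were called higher in XXF and 1 was called lower, where 0.67% of all genes tested were called higher and 0.712% lower. Between XXM and XYM mice 12 members were called higher in XXM and 0 lower, with 1.13% of all genes higher and 1.83% lower. Averaged over both gonadal sexes 14 members were higher in XX mice and 1 was lower, against 0.515% and 1.21% of all genes. The median log2 difference of the 27 members was 0.86 in females, 0.55 in males and 0.72 over both, and that of all genes was 0.06, 0.01 and 0.03. The values of XXF and XYF mice did not overlap for 18 members (5.65% of all genes) and those of XXM and XYM mice did not overlap for 11 (4.07%). For 10 members they did not overlap in either gonadal sex, as for 0.472% of all genes. The 10 members called in both comparisons were Klra1, Klra4, Klra7, Klra8, Klra9, Klra14-ps, Klrb1a, Klrb1c, Klre1 and Klrg1, each higher in XX, where 0.19% of all genes were called higher in both. Without XYF F9 and XYM 9 together 14, 9 and 12 of the members called in females, in males and over both were still called. Leaving out 1 mouse at a time lowered the count in females to 6 without XYF F9, 9 without XXF F5 and 10 without XYF F6. The 6 were Klri2, Klre1, Klra5, Klra14-ps, Klrb1c and Klrg1, which kept their call in females under all 32 alternatives, and the call was lost under 1 for Klrk1, 2 each for Klra7 and Klrc2, 3 for Klra4, 4 each for Klra1 and Klra8, 6 for Klrb1a, 7 for Klrb1 and 8 each for Klra9 and Klra17. It lowered the count in males to 2 without XXM 2, 3 without XYM 16, 4 when XXM 6 or XYM 13 was left out, and 5 when XXM 5 or XYM 12 was, while the count over both lay between 13 and 18. Of the 12 calls in males, those of Klrg1 and Klra8 were kept under all 32 alternatives. The call was lost under 1 of them for Klra7, 3 for Klre1, 6 each for Klra3 and Klra4, 7 for Klra13-ps, 8 each for Klra9 and Klrb1c, 9 for Klra1, 10 for Klra14-ps and 16 for Klrb1a.

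**Figure D2:**
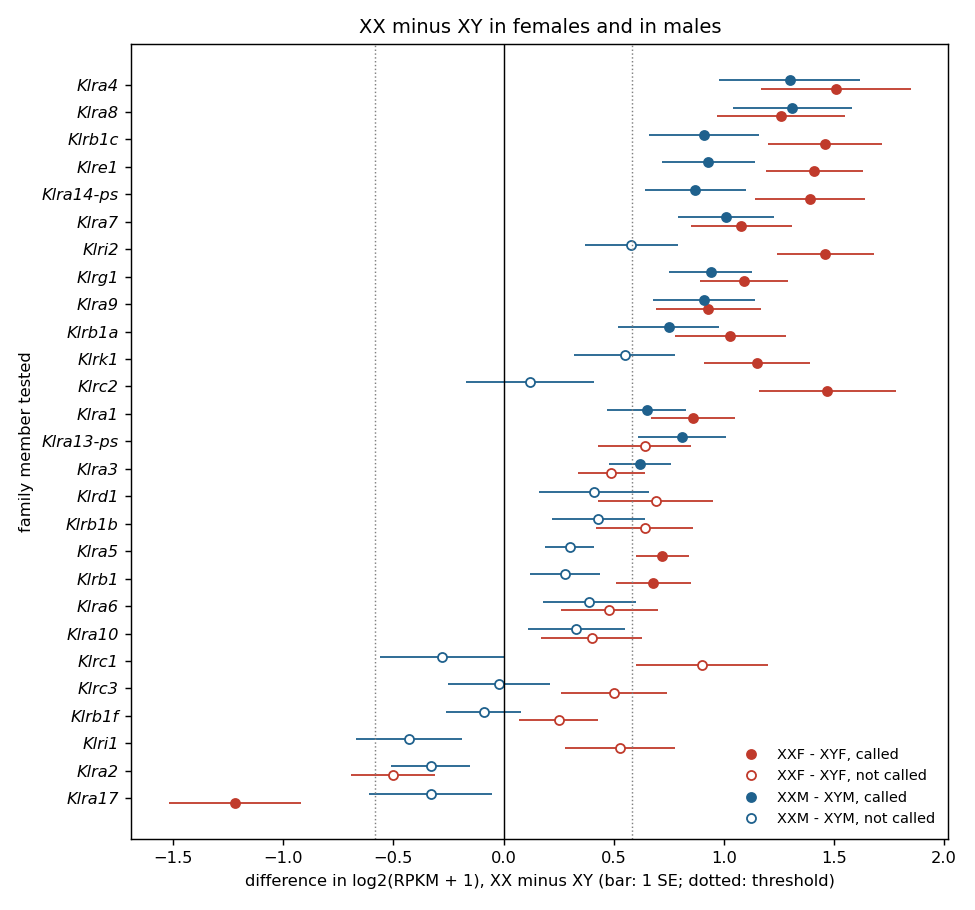
Difference in log2(RPKM + 1), XX minus XY, of the 27 members tested, in females (red) and males (blue), with 1 SE. Filled points are called by limma and dotted lines mark the size required; Klra4 stands highest in females at 1.51 and Klra8 in males at 1.31, and Klra17 and Klra2 lie below 0 in both.

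Of the 9 activating receptors, 7 were higher in XXF than in XYF mice (median log2 difference 1.26), 4 were higher in XXM than in XYM mice (median 0.58) and 7 were higher over both. Klra4 encodes Ly49D, an activating receptor that signals through DAP12. Its level was 31.1, 32.8, 30.7, 35.2 and 38.2 RPKM in XXF mice and 12.6, 20.9, 12.4 and 4.44 RPKM in XYF mice. In males it was 54, 35.5, 44.7, 43.3 and 38.8 RPKM with XX and 23.1, 18.8, 26.9, 16.8 and 6.7 RPKM with XY. None of the XY mice reached the XX mice, and the lowest values were those of XYF F9 and XYM 9. By limma XX exceeded XY by 1.51 ± 0.34 (SE) on the log2 scale in females with an adjusted p of 0.0395, by 1.30 ± 0.32 in males (0.0602) and by 1.40 ± 0.23 over both (0.00246).

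Klra8 encodes Ly49H, which recognises cells infected with mouse cytomegalovirus. It was at 17.3, 20.6, 20.6, 22.4 and 24.6 RPKM in XXF mice and at 7.76, 13.5, 9.35 and 4.37 RPKM in XYF mice. XXM mice had 36.4, 32.9, 56.5, 43.1 and 34.4 RPKM and XYM mice 19.3, 17.7, 24.4, 15.2 and 6.86 RPKM. The XX and XY values did not overlap within either gonadal sex, while 3 of the 5 XYM mice fell within the range of the XXF mice. In limma XX mice were higher by 1.26 ± 0.29 (SE) in females with an adjusted p of 0.0442, by 1.31 ± 0.27 in males (0.0326) and by 1.28 ± 0.20 over both (0.00145). Without XYF F9 the call in females was lost (1.01, adjusted p = 0.195), as it was without XXF F4, XXF F5 or XYF F6, whereas without XYF F9 and XYM 9 together it was kept (1.01, adjusted p = 0.0202).

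Klrb1c is the gene of the NK1.1 antigen by which NK cells of this strain are commonly stained. XXF mice had 24.7, 24.4, 25.3, 28.2 and 28.9 RPKM and XYF mice 7.83, 13.7, 11 and 5.11 RPKM. XXM mice had 18.5, 20.5, 23.4, 27.6 and 20 RPKM and XYM mice 14.2, 14.4, 16.1, 9.94 and 4.96 RPKM. All 10 XX mice lay above all 9 XY mice. The limma differences were 1.46 ± 0.26 (SE) among females with an adjusted p of 0.0115, 0.91 ± 0.25 among males (0.0727) and 1.19 ± 0.18 for both (0.00139). Klrb1a, another activating NKR-P1 gene, was higher as well (1.03, 0.75 and 0.89, adjusted p = 0.0531, 0.0868 and 0.00722 from limma), at 4.57 ± 0.781 (SD, n = 5), 1.83 ± 0.928 (n = 4), 5.22 ± 1.02 (n = 5) and 2.82 ± 1.11 RPKM (n = 5) in XXF, XYF, XXM and XYM mice. The male call of Klrb1a was lost more often than the other 11, among others by limma-voom and without any 1 of 10 mice (adjusted p up to 0.195). The third gene of this kind, Klrb1f, was not called (0.25 in females and -0.09 in males).

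Klrk1, the gene of NKG2D, which binds stress-induced ligands, had 22.5 ± 3.79 RPKM in XXF mice (SD, n = 5) and 9.74 ± 2.74 in XYF mice (n = 4). In males it had 23.9 ± 4.69 RPKM with XX (n = 5) and 16.6 ± 5.19 with XY (n = 5). The groups did not overlap in females (18.5 to 26.9 against 6.33 to 12.3 RPKM) and did so in males. By limma it was called for females (1.15 ± 0.24, SE, with an adjusted p of 0.0274) and for both gonadal sexes (0.85 ± 0.16, 0.0083), but not for males (0.55 ± 0.23, 0.137). Klri2, which pairs with KLRE1, had the smallest p of all members in females, with a difference of 1.46 ± 0.22 (SE, adjusted p = 0.00278 by limma), and was not called in males, at 0.58 ± 0.21 (adjusted p = 0.112). Its level was 7.46 ± 1.63, 2.1 ± 0.775, 6.91 ± 1.59 and 4.37 ± 1.35 RPKM in XXF, XYF, XXM and XYM mice (SD, n = 5, 4, 5 and 5).

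**Figure D3:**
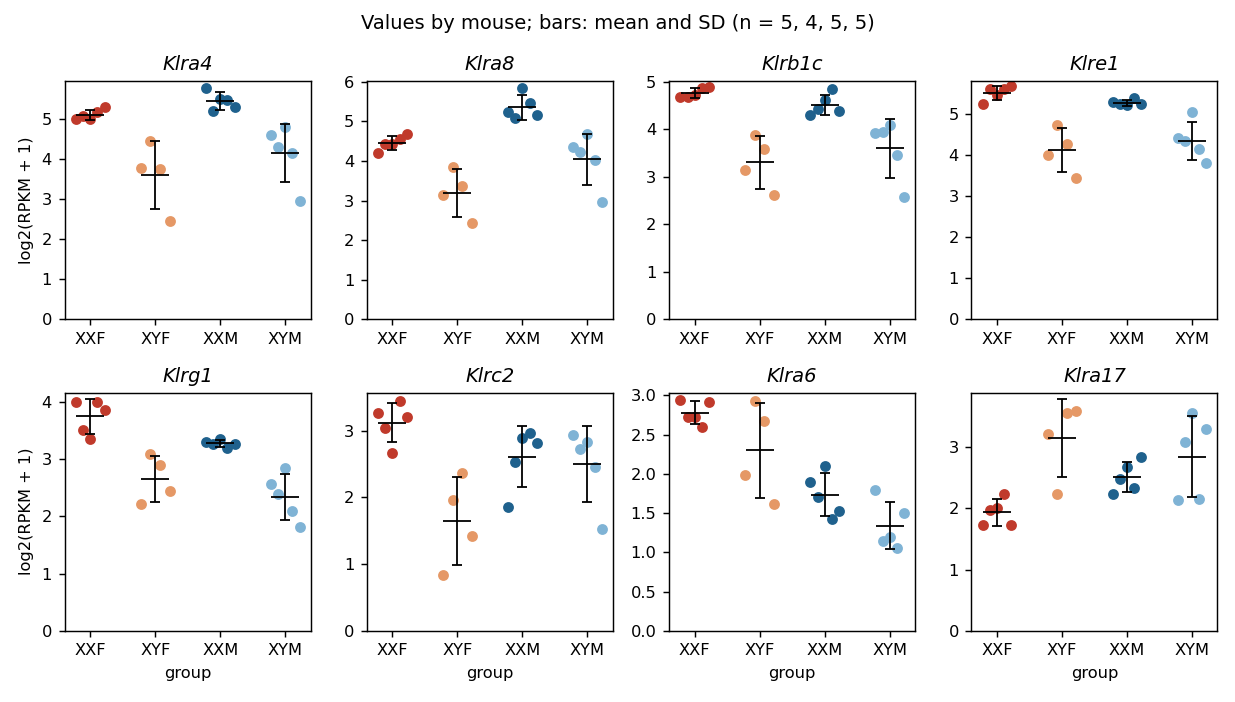
Values of single mice for 8 members as log2(RPKM + 1), with the mean and SD of each group (n = 5, 4, 5 and 5). XX points stand above XY points in both gonadal sexes for Klra4, Klra8, Klrb1c, Klre1 and Klrg1, male points stand lower for Klra6, and XXF points are the lowest group for Klra17.

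Of the partner chains, Klre1 was higher in XX mice in both gonadal sexes. Its level was 36.7, 47.9, 42.6, 47 and 49.7 RPKM in XXF mice and 15, 25.5, 18 and 9.84 RPKM in XYF mice. In XXM mice it was 37.6, 36.5, 35.9, 40.9 and 36.6 RPKM, and in XYM mice 20.1, 19.3, 31.8, 16.4 and 12.9 RPKM. No XY mouse reached the lowest XX mouse. The female, male and joint differences were 1.41 ± 0.22, 0.93 ± 0.21 and 1.17 ± 0.15 (SE), with adjusted p of 0.00347, 0.0445 and 0.000374 in limma, the last being the smallest p of any member for both sexes. Klrd1 was not called in either gonadal sex (0.69, adjusted p = 0.189, and 0.41, adjusted p = 0.278, from limma) and had an adjusted p of 0.0997 over both with a difference of 0.55, under the size required. Their values overlapped in both, with 89.1 to 134 RPKM in XXF, 34.3 to 103 in XYF, 54.1 to 88.4 in XXM and 31.6 to 71.6 in XYM mice.

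The 13 inhibitory receptors were divided. In females 6 were higher in XX (Klra1, Klra5, Klra7, Klra9, Klrb1 and Klrg1), 1 was lower (Klra17) and 6 were not called, with a median log2 difference of 0.68. In males 5 were higher (Klra1, Klra3, Klra7, Klra9 and Klrg1) and 8 were not called, with a median of 0.39. Klrg1, a cadherin receptor of NK cells and of effector T cells, had 15.1, 10.5, 9.19, 15.1 and 13.6 RPKM in XXF mice and 3.64, 7.5, 6.44 and 4.42 RPKM in XYF mice. In males it had 8.89, 8.55, 9.3, 8.21 and 8.62 RPKM with XX and 4.89, 4.26, 6.15, 3.28 and 2.5 RPKM with XY. All XX mice were above all XY mice. The SD was 0.406 RPKM in XXM mice and between 1.42 and 2.73 in the other groups. The limma differences of 1.09 ± 0.20, 0.94 ± 0.19 and, jointly, 1.02 ± 0.14 (SE) had adjusted p of 0.013, 0.0291 and 0.000523, and Klrg1 was called in each of the 32 alternatives tried in females and in males.

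Klra7 (Ly49G), a receptor for H-2D molecules, had 23.2 ± 2.19 RPKM in XXF (SD, n = 5), 11 ± 4.14 in XYF (n = 4), 19.8 ± 1.19 in XXM (n = 5) and 9.8 ± 3.55 in XYM mice (n = 5). Its limma differences of 1.08 ± 0.23 (SE) among females with an adjusted p of 0.0343 and 1.01 ± 0.22 among males (0.0393) were close in size. Klra9 (Ly49I) and Klra1 (Ly49A), both receptors for MHC class I, were higher by 0.93 and 0.86 in females and by 0.91 and 0.65 in males (adjusted p = 0.0748, 0.0376, 0.0616 and 0.0734 from limma). Klra3 (Ly49C) was called in males alone (0.62, adjusted p = 0.0469, against 0.49, adjusted p = 0.122, in females), and the difference between these was not called (-0.13, adjusted p = 0.728). Klra5 (Ly49E) and Klrb1 (NKR-P1G) were called in females (0.72 and 0.68, adjusted p = 0.00643 and 0.0565), at levels of 1.26 and 1.19 RPKM in XXF and 0.378 and 0.353 RPKM in XYF mice. Averaged over both gonadal sexes, 6 members of all classes had an adjusted p under 0.1 with a difference under the size required: Klra3 (0.55), Klra5 (0.51), Klrb1 (0.48), Klrb1b (0.53), Klrd1 (0.55) and Klra2 (-0.41).

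Klra17 and Klra2 went the other way. Klra17 encodes Ly49Q, an inhibitory receptor known from plasmacytoid dendritic cells and myeloid cells rather than NK cells. It was at 2.29, 2.92, 3.03, 3.71 and 2.31 RPKM in XXF mice and at 8.3, 3.71, 10.8 and 11.1 RPKM in XYF mice. In XXM mice it was at 3.72, 4.59, 5.36, 4.03 and 6.15 RPKM, and in XYM mice at 3.37, 7.53, 10.7, 3.42 and 8.83 RPKM. In females 3 XYF mice lay well above all XXF mice and XYF F7 was level with the highest of them, while in males the groups overlapped. XX minus XY was -1.22 ± 0.30 (SE) among females by limma, with an adjusted p of 0.06, against -0.33 ± 0.28 among males (0.437) and -0.78 ± 0.20 for both (0.0498). Without XYF F9 it was -1.07 in females (adjusted p = 0.236) and -0.70 over both (adjusted p = 0.121), and so was not called, nor was it without XYF F9 and XYM 9 together (-1.07 and -0.65, adjusted p = 0.162 and 0.158). The call in females was also lost without XXF F1, XXF F2, XXF F5 or XYF F6. Klra2 encodes Ly49B, which is likewise found on myeloid cells. Its levels of 14.7 ± 2.84, 21 ± 3.27, 9.78 ± 1.83 and 12.8 ± 3.71 RPKM in XXF, XYF, XXM and XYM mice (SD, n = 5, 4, 5 and 5) gave differences of -0.50 and -0.33 that were not called (adjusted p = 0.186 and 0.237 from limma). The 7 myeloid markers summed to 4121 to 5903 RPKM in XXF mice, 7386 to 45662 in XYF, 4226 to 6340 in XXM and 3148 to 46317 in XYM mice. None of the 7 was called by limma in any of the 7 comparisons, 0 of 7 were above 0 between XXF and XYF and 1 of 7 between XXM and XYM, and the part of myeloid cells in the Klra17 result was not tested.

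The pseudogenes Klra14-ps and Klra13-ps were higher in XX mice too. Klra14-ps had 9.2 ± 1.59, 2.86 ± 0.384, 9.63 ± 1.52 and 5.21 ± 2.09 RPKM in XXF, XYF, XXM and XYM mice (SD, n = 5, 4, 5 and 5), with differences of 1.39 and 0.87 (adjusted p = 0.01 and 0.0699 from limma). Klra13-ps was called in males (0.81, adjusted p = 0.0602) and over both (0.72, adjusted p = 0.0112) but not in females (0.64, adjusted p = 0.145). Klra14-ps shares 20.4% of its windows with Klra8, and Klra13-ps shares 13.1% with Klra7, both of which were higher in XX mice.

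In bulk RNA fewer cells of a type and less RNA per cell cannot be told apart. Genes of NK cells outside the family were measured beside it. Of 9 NK markers, 5 were higher in XXF than in XYF mice (Gzma by 1.73, Ncr1 by 1.46, Cma1 by 1.2, Prf1 by 1.0 and Gzmb by 0.85), 2 were higher in XXM than in XYM mice (Gzma by 1.40 and Cma1 by 1.07), and none was lower. Gzma, Gzmb, Prf1 and Cma1 encode granule proteins and Ncr1 the receptor NKp46. The median difference of the 9 markers was 0.85 in females and 0.36 in males. The 9 markers summed to 588 to 712 RPKM in XXF, 185 to 418 in XYF, 429 to 506 in XXM and 150 to 442 in XYM mice. The sum of the family without Klra2 and Klra17, divided by this NK marker sum, was 0.657 to 0.705 in XXF mice and 0.693 to 0.808 in XYF mice. It was 0.803 to 0.984 in XXM and 0.756 to 0.955 in XYM mice. By this ratio XX and XY mice overlapped in both gonadal sexes. Gzma alone made up 45% to 58.5% of the marker sum in XX mice and 20.1% to 43.6% in XY mice. Without Gzma the ratio was 1.19 to 1.47 in XXF and 0.945 to 1.25 in XYF mice, and 1.73 to 2.12 in XXM and 1.12 to 1.35 in XYM mice, so that it no longer overlapped in males and the overlap rested on that gene there. The T cell markers were measured too: 1 of 9 was higher in XXF than in XYF mice (Thy1 by 0.69, median of the list 0.45), and 3 of 9 were lower in XXM than in XYM mice (Cd4 at -0.69, Cd8a at -0.77 and Cd8b1 at -0.83, median -0.30). Of 5 B cell markers Pax5 was higher in XXM than in XYM mice (0.90), as was Hba-a1 (1.55) of 4 erythroid markers, and none of either list was called between XXF and XYF mice. The B cell medians were 0.51 in females and 0.30 in males, with 5 of 5 above 0 in each. The erythroid medians were -0.76 in females (0 of 4 above 0) and 0.81 in males (4 of 4). The ratios to the NK marker sum, which were chosen after the results were seen, were not tested. Neither was the part of NK, T, B or erythroid cell number in the differences between XX and XY mice.

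The family as a whole summed to 402, 461, 437, 492 and 508 RPKM in XXF mice and to 248, 330, 290 and 165 RPKM in XYF mice. In males the sums were 417, 392, 478, 440 and 403 RPKM with XX and 290, 287, 360, 238 and 165 RPKM with XY. Each XX mouse thus had more than each XY mouse. The 9 activating receptors divided by the 13 inhibitory receptors gave a ratio of 1.19 to 1.32 in XXF mice and of 0.466 to 0.875 in XYF mice. In males the ratio was 1.55 to 1.91 with XX and 0.803 to 1.56 with XY. It was above 1 in all XX mice and below 1 in all XYF mice and XYM 9. With Klra2 and Klra17 left out of the inhibitory sum, the ratio was 1.41 to 1.56 in XXF, 1.05 to 1.23 in XYF, 1.88 to 2.23 in XXM and 1.4 to 1.92 in XYM mice. Then no mouse was below 1, and the male ratios stood above the female ones except for XYM 9, which at 1.4 lay below the XXF mice. These sums are descriptions over members that were chosen with results known, and they were not tested.

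**Figure D4:**
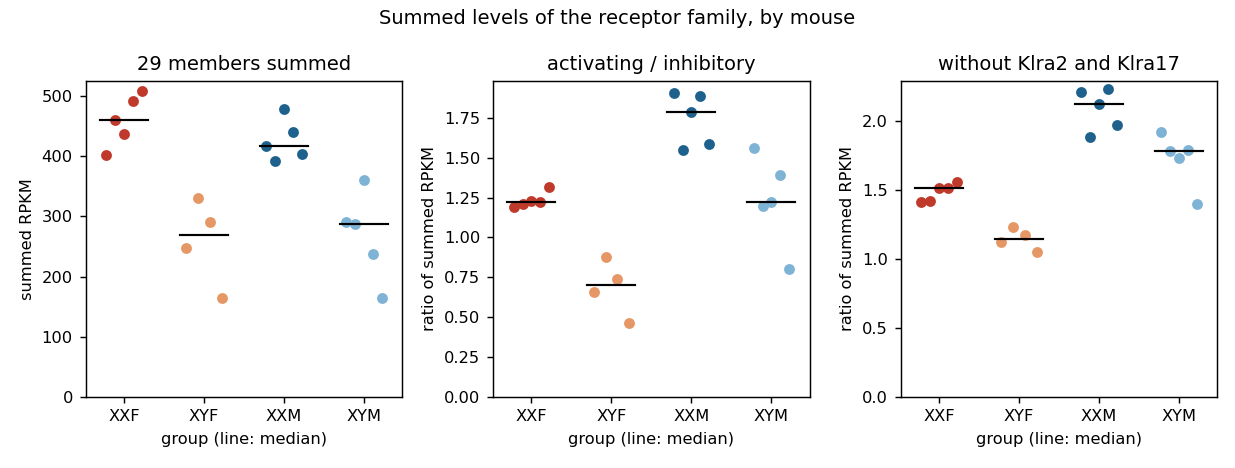
Summed RPKM of the 29 members (left), the ratio of the summed RPKM of 9 activating to 13 inhibitory members (middle) and the same ratio without Klra2 and Klra17 (right), by mouse, with the median of each group as a line. The sums of XX mice (392 to 508) lie above those of XY mice (165 to 360), and both ratios are higher in males than in females with the same sex chromosomes, except that XYM 9 falls among the XYF values in the middle panel.

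Whether the XX to XY difference itself differed between females and males was tested as an interaction. By limma 0 of 27 members were called, where 0.0846% of all genes were called, and 6 members had an unadjusted p under 0.05, a share near the 21% of all genes that did. limma-voom on the recovered reads called 0 as well. The smallest p belonged to Klrc2 and Klrc1, the genes of NKG2C and NKG2A, which are activating and inhibitory partners of CD94. Klrc2 had 8.57, 7.2, 5.34, 9.85 and 8.19 RPKM in XXF mice and 0.795, 2.9, 4.13 and 1.68 RPKM in XYF mice. In males it had 2.64, 4.76, 6.41, 6.8 and 6.08 RPKM with XX and 6.6, 5.64, 6.12, 4.52 and 1.88 RPKM with XY. The female groups did not overlap, the male groups overlapped nearly throughout, and XXM 2 and XYM 9 were the lowest of their groups. By limma XX exceeded XY by 1.47 ± 0.31 (SE) among females (adjusted p = 0.0317) and by 0.12 ± 0.29 among males (adjusted p = 0.814), and the interaction was 1.36 (SE 0.43, adjusted p = 0.135). The female difference was not called without XYF F9 (1.40, adjusted p = 0.133) or without XYF F6 (1.21, adjusted p = 0.121), which had 7 reads of Klrc2. For Klrc1 the difference was 0.90 in females (adjusted p = 0.145) and -0.28 in males (adjusted p = 0.514), with an interaction of 1.18 (SE 0.41, adjusted p = 0.147). Its levels were 9.05 ± 2.9, 4.36 ± 1.51, 6.23 ± 2.12 and 7.71 ± 2.5 RPKM in XXF, XYF, XXM and XYM mice (SD, n = 5, 4, 5 and 5). For Klri2 the interaction was 0.88 (SE 0.31, adjusted p = 0.148). Klrc1 and Klrc2 share many windows, as given above, and their interactions are not independent of how reads were divided between them. Without XYM 9 the interaction was called for 11.9% of all genes and for 7 members, Klrc2 (1.60, adjusted p = 0.0457), Klrc1 (1.36, adjusted p = 0.0562) and Klri2 (1.07, adjusted p = 0.0457) among them. It was called for 4 members without XXF F3 (8.44% of all genes), 2 without XYF F8 (5.28%) and 5 without XYF F9 and XYM 9 together (5.51%).

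Gonadal sex divided the family otherwise. Between XXM and XXF mice 1 member was called higher in males and 2 were called lower, where 1.3% and 2.91% of all genes were called. Between XYM and XYF mice 10 were higher and 2 lower, against 7.63% and 8.13% of all genes. Over both sex chromosome complements 3 were higher in males (Klra8, Klrb1 and Klrb1b) and 3 lower (Klra6, Klra2 and Klrd1), against 1.96% and 5.36%. The median log2 difference of the members was -0.05, 0.29 and 0.15, and that of all genes was -0.01, 0.02 and 0.02. The values did not overlap between XXM and XXF mice for 5 members (9.71% of all genes) and between XYM and XYF mice for 2 (13.8%). These small counts were not tested against the shares of all genes. The number of members without overlap both with XX and with XY was 0, against 2.04% of all genes. The count of 12 between XYM and XYF fell to 6 without XYF F6 and 7 without XYM 12, and that of 3 between XXM and XXF to 1 without XXM 7. Without XYF F9 and XYM 9 together the counts were 3, 14 and 5 in XX mice, in XY mice and over both.

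**Figure D5:**
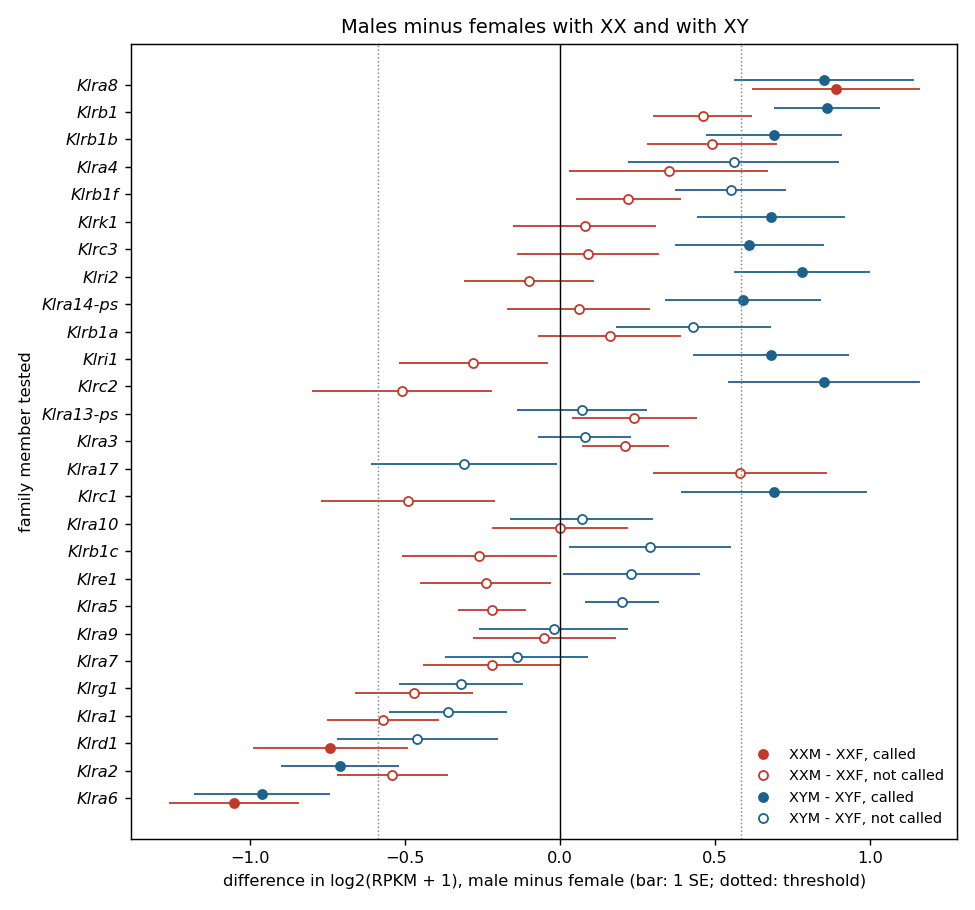
Difference in log2(RPKM + 1), male minus female, of the 27 members tested, with XX (red) and with XY (blue) sex chromosomes, with 1 SE. Filled points are called by limma and dotted lines mark the size required; Klra8 is called higher in males at 0.89 and 0.85 and Klra6 lower at -1.05 and -0.96.

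Klra6, the gene of the inhibitory Ly49F, had the smallest p of any member between males and females with XX and over both complements, while with XY that of Klrb1 was smaller. Its level was 6.65, 5.63, 5.59, 5.05 and 6.55 RPKM in XXF mice and 2.74, 2.28, 3.27, 1.69 and 1.88 RPKM in XXM mice. With XY it was 2.94, 6.62, 5.39 and 2.07 RPKM in females and 2.48, 1.21, 1.29, 1.09 and 1.83 RPKM in males. With XX all females lay above all males, and with XY 3 of the 4 females did, while XYF F9 was below XYM 12. The difference, males minus females, was -1.05 ± 0.21 (SE) with XX by limma with an adjusted p of 0.00504, -0.96 ± 0.22 with XY (0.0069) and -1.0 ± 0.15 over both (0.000254). Each of these was called in all alternatives tried (32, 32 and 31), with values between -1.36 and -0.75.

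Klra8 went the opposite way, with the values given above. All XXM mice lay above all XXF mice, and with XY 4 of the 5 males lay above all females, XYM 9 being the exception. Males exceeded females by 0.89 ± 0.27 (SE) with XX, where limma gave an adjusted p of 0.0586, by 0.85 ± 0.29 with XY (0.0359) and by 0.87 ± 0.20 over both (0.00436). Without XYF F9 the difference with XY was 0.59 and not called (adjusted p = 0.115). The call with XX was lost without XXF F1, XXF F2, XXM 6 or XXM 7, with a lowest difference of 0.77 and a highest adjusted p of 0.162 over all alternatives, whereas the call over both was kept under each of 31. Klra4, the other Ly49 receptor with DAP12, was not called (0.35 and 0.56, adjusted p = 0.613 and 0.213). Set against Klra7 in the same mouse, which was not called by gonadal sex (-0.22 and -0.14), the level of Klra8 was 0.844 to 0.97 times that of Klra7 in XXF mice and 0.664 to 0.867 times in XYF mice. In males it was 1.62 to 2.75 times with XX and 1.27 to 2.01 times with XY. These ranges of males and females did not overlap. Against Klra4 in the same mouse, Klra8 was at 0.558 to 0.673 times in XXF and 0.674 to 1.27 times in XXM mice. With XY it was at 0.615 to 0.985 times in females and 0.836 to 1.02 times in males, and these ranges overlapped. Such ratios were described with results known and were not tested. The level of Klra6 was 0.216 to 0.339 times that of Klra7 in XXF, 0.252 to 0.475 times in XYF, 0.0849 to 0.159 times in XXM and 0.0875 to 0.341 times in XYM mice.

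Among the NKR-P1 genes Klrb1 and Klrb1b, inhibitory receptors for Clr molecules, were higher in males over both complements (0.66 and 0.59, SE 0.11 and 0.15, adjusted p = 0.000647 and 0.00977 from limma). The call of Klrb1b was lost under 9 of 31 alternatives, 8 of which left out 1 mouse (XXF F1, XXF F2, XYF F6, XYF F9, XXM 7, XXM 8, XYM 13 or XYM 15), and that of Klrb1 under 1. Klrb1 had 1.19 ± 0.426, 0.353 ± 0.21, 1.99 ± 0.402 and 1.47 ± 0.484 RPKM in XXF, XYF, XXM and XYM mice (SD, n = 5, 4, 5 and 5), and all XYM mice lay above all XYF mice. Klra2 was lower in males with XY (-0.71 ± 0.19, SE, adjusted p = 0.0127 by limma) and jointly (-0.63 ± 0.13, adjusted p = 0.00247), and the joint call was lost under 7 of 31 alternatives, namely without XYF F9 (-0.58, under the size required), XXF F4, XXM 2, XYM 12 or XYM 16, without XYF F9 and XYM 9 together, and with array weights. Klrd1 was lower with XX (-0.74 ± 0.25, SE, adjusted p = 0.0903 by limma) and jointly (-0.60 ± 0.18, adjusted p = 0.0207), and with XX all 5 XXM mice lay under all 5 XXF mice. Its call with XX was lost under 12 of 32 alternatives, 10 of which left out 1 mouse (any of XXF F2 to F5, XXM 5 to 8, XYM 13 and XYM 16; adjusted p up to 0.186), and its joint call under 8 of 31, 7 of which left out 1 mouse (XXF F2, XYF F6, XYF F7, XYF F8, XXM 8, XYM 16 or XYM 9), where the difference was as small as -0.51. With XY 7 further members were higher in males: Klri2 (0.78), Klri1 (0.68), Klrk1 (0.68), Klrc1 (0.69), Klrc2 (0.85), Klrc3 (0.61) and Klra14-ps (0.59). Their differences with XX were between -0.51 and 0.09 and were not called. Of these Klri2 kept its call under all 32 alternatives, and each of the other 6 lost it without at least 1 single mouse, Klra14-ps under 13 alternatives, Klrc1 under 9, Klrc3 under 7, Klrk1 under 5, and Klrc2 and Klri1 under 3 each. Whether these differences depended on the sex chromosomes is the interaction given above, which was called for none of the 7 (adjusted p = 0.153 for Klri1, 0.289 for Klrk1, 0.354 for Klrc3 and 0.356 for Klra14-ps by limma). Those for Klrc1 and Klrc2 share the XYF and XYM mice with the interaction given above and add nothing independent of it.

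The T cell markers moved with gonadal sex beside these genes: 8 of 9 were lower in males over both complements (median -1.35), and their sum was 1304 to 1898 RPKM in XXF, 657 to 1679 in XYF, 413 to 627 in XXM and 399 to 815 in XYM mice. The erythroid markers, 4 tested, were all lower in males over both complements (median -1.62) and with XY (median -2.37), and of 5 B cell markers 3 were higher in males over both (median 0.60) and 4 with XY (median 0.70). Of the 9 NK markers 1 was lower in males over both complements (Txk, -0.94) and none higher. With XX 2 were lower and 0 higher (median -0.42), and with XY 1 was lower and 1 higher (median -0.03). CD94 and KLRG1 are also found on T cells, and the part of these cell types in the differences of Klrd1 and the other members was not tested.

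Of the adaptors and signalling genes through which these receptors act, 13 were listed and tested, and 0 were called by limma between XX and XY mice in females, in males or over both, with medians of 0.15, 0.03 and 0.09. Between males and females over both complements 2 were higher in males (Syk by 0.87 and Plcg2 by 0.65) and 3 lower: Hcst, the gene of DAP10 (-0.82), Cd247, the zeta chain (-1.19), and Zap70 (-0.84). Tyrobp, the gene of DAP12, was lower in XYM than in XYF mice (-0.67, adjusted p = 0.0598 from limma), where Fcer1g was lower (-0.88) and Inpp5d higher (0.64) as well. Of 22 listed ligands 17 were in the table and 10 were tested. Clec2g, of the Clr family to which ligands of the NKR-P1 receptors belong, was lower in XX mice over both gonadal sexes (-0.79, SE 0.17, adjusted p = 0.0187 from limma). Taken by gonadal sex, no ligand was called between XXF and XYF mice, and 1 was called lower in XXM than in XYM mice. Clec2i, another Clr gene, was higher in males over both complements (0.86, SE 0.21, adjusted p = 0.00753). Cdh1, the gene of E-cadherin, which binds KLRG1, was higher in XYM than in XYF mice (0.69, SE 0.15, adjusted p = 0.00477). No other ligand was called, the classical MHC class I genes H2-K1 and H2-D1 included.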

How the data were processed

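One table of 27179 genes in 19 splenocyte libraries was used. Per the labels and the study's methods the authors sequenced paired 51-base reads on an Illumina HiSeq, aligned them to mm10 with subread and counted them per gene with featureCounts (versions, gene annotation, strand setting and treatment of multi-mapping reads not stated there), and the methods and the labels name different library kits. The authors deposited log2(RPKM + 1) values with 0.0001 added. The RPKM steps gave whole reads for 100% of the 21317 genes with a read, which set the depths.

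Group means were fitted with limma 3.58.1 (R 4.3.3), with a mean-variance trend and Benjamini-Hochberg adjustment over the 14186 genes with at least 0.5 RPKM in at least 4 mice, in 7 comparisons. Genes were called at an adjusted p under 0.1 and a change of over 1.5-fold in RPKM + 1. Apart from Xist and Sry, the genes named are all members, and the genes of the marker, ligand, adaptor and other receptor lists that were called. H2-K1 and H2-D1, which were not called, and Cd69, which was not called over both, are named as well. Members and lists were chosen with earlier results of these data known. Each library is 1 mouse, so p-values measure the spread between mice. Members are named by RefSeq symbols through Entrez identifiers (28 of 29 matched). Alternatives were limma-voom on recovered reads, other pseudocounts, filters, thresholds and scalings, array weights, the 2 compared groups alone and each mouse left out. The fit was tested on simulated data.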

Additional observations from a re-analysis of the deposited data

Results flagged for a closer look

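Among 108 sets of values, 1 member in 1 group each, 9 had a mouse far from the others of its group on the log2(RPKM + 1) scale, and chance alone marks about 1 set in 20. XYM 9 was the low value for 4 members: Klra14-ps at 1.32 (the others 2.77 to 2.91), Klrk1 at 3.12 (4.17 to 4.45), Klri2 at 1.60 (2.45 to 2.69) and Klrb1a at 0.96 (1.91 to 2.24). XYF F9 was low for Klra14-ps at 1.72 (2.0 to 2.04). These 2 mice had the lowest NK marker sums and the highest myeloid marker sums of their groups.

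The other 4 were in other mice. Klrc1 was low in XXM 2 at 1.89 (2.90 to 3.23). Klrb1a was high in XXM 7 at 3.0 (2.45 to 2.58), Klra13-ps was high in XXM 6 at 6.39 (5.80 to 5.96), and Klra10 was high in XYF F8 at 1.60 (0.97 to 1.06).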

How the results depend on the processing

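No paired analysis was possible because the compared groups share no replicate numbers. Over 68 differences of named members and up to 32 alternatives each, 1916 of 2152 values kept direction and call, 212 kept direction but lost the call, 24 gained it and 0 changed sign. With 1 mouse left out at a time, members called numbered 6 to 20 between XXF and XYF (16 with all mice; 6 without XYF F9, 9 without XXF F5, 10 without XYF F6), 2 to 14 between XXM and XYM (12; 2 without XXM 2, 3 without XYM 16), 13 to 18 for XX against XY over both (15), 1 to 4 between XXM and XXF (3), 6 to 14 between XYM and XYF (12), 4 to 6 for males against females over both (6) and 0 to 7 for the interaction (0; 7 without XYM 9). Fits of the 2 compared groups alone called 10 (XXF and XYF), 7 (XXM and XYM) and 6 (XYM and XYF). An adjusted p under 0.05 left 5 between XXM and XYM and 1 between XXM and XXF. With no threshold on the log2 difference 6 were called between XXM and XXF and 10 for males against females over both. Array weights gave 5 between XXM and XXF (5.6% of all genes) and 7 for the interaction (13.5% of all genes), and leaving out XYF F9 and XYM 9 together, an alternative chosen after seeing the data, gave 5 for the interaction. limma-voom on recovered reads called 16, 11 and 19 members for XX against XY in females, in males and over both. Of the 15 members called for XX against XY over both gonadal sexes, all but Klra13-ps, Klra17 and Klrc2 were called under all 31 alternatives. Where a count moved, the cause was not tested beyond the change in mice or threshold itself. Depth limits the weakest members, Klrb1, Klrc3 and Klra5, which had under 5 reads in some mice.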

Other observations

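Other lectin receptors encoded in the NK gene complex were listed beside the family. Of 15 listed genes 14 were in the table and 10 were tested, and over both gonadal sexes 1 differed between XX and XY mice by limma: Clec2g, which was lower in XX. None of the 10 was called between XXF and XYF mice. Between XXM and XYM mice Clec1b, the gene of the platelet receptor CLEC-2, was higher in XX (0.63, SE 0.18, adjusted p = 0.0765 from limma), and it was lower in XYM than in XYF mice (-0.93, SE 0.19, adjusted p = 0.00388). Clec9a, the gene of a receptor of cross-presenting dendritic cells, was higher in males over both complements (0.64, SE 0.13, adjusted p = 0.00197) and not called between XX and XY mice (0.35, adjusted p = 0.135). Cd69, an activation marker of lymphocytes, was not called for XX against XY (0.29, SE 0.14, adjusted p = 0.231) or for males against females (0.05, SE 0.14, adjusted p = 0.822), each over both. The summed level of these genes was 418 to 576 RPKM in XXF, 366 to 580 in XYF, 386 to 586 in XXM and 358 to 578 in XYM mice, so that the groups overlapped.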
